A study of Mus musculus with 4 samples.

Results

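The response of mouse YAMC cells to tumour necrosis factor (TNF) in the presence of a control siRNA was described across 13348 of the 29179 genes in the deposited count table. These are the genes with at least 50 reads on average in the control siRNA libraries, 1 kept in medium and 1 given TNF, and they held 99.6% of the reads in each library. Among them, 7456 had at least 500 reads on average and are called well-read here. The gene nearest the minimum had a mean of 50 reads, and 192 genes with a mean of at least 45 reads lay just below it, the highest at 49.5. A gene with few reads in 1 library could pass this minimum through the other library alone. Csf2, Cxcl2, Cxcl1, Nos2, Irg1, Mmp10, Serpinb2, Itga2, Igfbp5, Gli2, Mrgprf and Fam180a are among such genes. Their place in a ranking by ratio therefore depends on the minimum.

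YAMC is a conditionally immortalised line that the labels call young adult mouse colonocytes. It was derived from mice that carry a temperature-sensitive viral T antigen under an interferon-inducible promoter, so it divides in the cold with interferon-γ and stops when warmed without it. Cells at passages 10 to 12 were grown at 33 °C with 5 U/mL interferon-γ, received 50 nM siRNA, and were moved 24 h later to 37 °C in medium that lacked interferon-γ. TNF at 100 ng/mL, or fresh medium without it, was added 48 h after transfection and left for 24 h. The control siRNA libraries differ by TNF alone as labelled, and both come from cells that had been maintained with interferon-γ. The series also holds a pair of libraries from cells that received an siRNA against Sirt6, a nuclear deacylase, treated in the same way, and no library is common to the 2 pairs.

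TNF is a cytokine released by activated macrophages and other cells at sites of inflammation. It binds its receptors on the cell surface, and the complexes that form there switch on the IκB kinases, which free the transcription factor NF-kB to enter the nucleus, and the MAP kinases, which act on AP-1. NF-kB then raises chemokine, cytokine and adhesion genes and also the genes of its own inhibitors, and interferon made later in the response can act back on the cell through STAT proteins and a DNA element known as ISRE.

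The control siRNA libraries held 22422365 reads in medium and 18793708 with TNF, so a gene at an equal level has fewer reads with TNF. Levels are therefore given in RPM, counts scaled to library size after TMM scaling of the 2 libraries, and ratios as log2 of TNF over medium. With 1 library a side there is no replicate, no p-value is given, and each difference compares libraries, not conditions. The 95% intervals after log2 ratios are exact conditional binomial intervals and cover counting error only, since PCR copies were not removed by molecular identifiers and a read is not a molecule. Sirt6 was at 17.2 RPM (exact Poisson 95% interval 15.5 to 18.96) in medium and 18.9 (17.0 to 21.0) with TNF, against 7.08 and 7.02 in the libraries with Sirt6 siRNA. Defining markers of colon epithelium were largely absent, since 10 of 30 had no read in either control library, Epcam, Cdx1, Car1 and Hnf4a among them, and only 7 were measured. Keratins Krt8, Krt18 and Krt19 were read at 418 RPM or more in both libraries, and so were Upk3b (1254 to 1008 RPM) and Msln (538 to 503 RPM), markers of mesothelium, of which 15 of 16 were measured. The 15 include the same keratins, and Calb2 had no read. Of 18 fibroblast and smooth muscle markers 13 were measured, among them Col1a1 (3218 to 2668 RPM) and Vim (2077 to 1814 RPM), while Lum had no read. Of 22 leukocyte markers 2 were measured, and the summed level of all 22 was 20.1 RPM in medium and 20.2 with TNF.

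Stretches of promoter are shown for called genes of some lists, picked by size of change only among those whose promoter holds the letters of an element. They are chemokines with letters of the NF-kB element, interferon-stimulated genes with letters of ISRE, and a cholesterol synthesis gene with letters of the sterol regulatory element. Genes without the letters could not be picked, whatever their change. Each line gives 60 bases from the RefSeq table of the GRCm38.p6 assembly, 5′ to 3′ on the plus strand, with every match of the element named for that gene in capitals.
Cxcl2: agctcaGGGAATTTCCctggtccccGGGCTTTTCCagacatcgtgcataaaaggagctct
Ccl20: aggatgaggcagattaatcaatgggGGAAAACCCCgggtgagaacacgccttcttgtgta
Cxcl1: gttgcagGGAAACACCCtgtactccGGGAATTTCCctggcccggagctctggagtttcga
Gbp5: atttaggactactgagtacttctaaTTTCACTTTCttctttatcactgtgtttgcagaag
Gbp2: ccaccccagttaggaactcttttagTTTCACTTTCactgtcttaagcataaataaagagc
Ifit3: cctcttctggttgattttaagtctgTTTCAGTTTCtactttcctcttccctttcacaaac
Hmgcs1: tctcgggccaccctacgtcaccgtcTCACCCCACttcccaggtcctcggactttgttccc

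They lie at chr5:90903796-90903855 for Cxcl2, chr1:83116661-83116720 for Ccl20, chr5:90891149-90891208 for Cxcl1, chr3:142594685-142594744 for Gbp5, chr3:142620579-142620638 for Gbp2, chr19:34583382-34583441 for Ifit3 and chr13:119690189-119690248 for Hmgcs1. All are upstream of the annotated start of the gene. The capitals begin 97 and 78 bases before the start of Cxcl2, 80 before Ccl20, 89 and 71 before Cxcl1, 137 before Gbp5, 59 before Gbp2, 122 before Ifit3 and 137 before Hmgcs1. The letters searched were GGG, 2 bases of any kind and TTTCC for NF-kB, TTTC, 2 bases of any kind and TTTC for ISRE, TCACNCCAC for the sterol element and TGANTCA for AP-1, where N is any base, on both strands of the 250 bases before the start. The NF-kB letters of Ccl20 and those farther from the start of Cxcl1 are read on the opposite strand. Ifit3 has a second ISRE match in the 250 bases that lies outside the stretch shown. A match is a run of letters, not a shown binding site.

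Called with a ratio of at least 2 and an interval that left out 1, 217 genes (1.63% of those measured) rose and 84 (0.629%) fell. Without genes that share over 10% of their 50-base sequences with another gene, 137 rose and 74 fell. A further 368 well-read genes (4.94%) rose and 342 (4.59%) fell by 1.3- to 2-fold. At 1.3-fold or more in all measured genes, the call used for the gene lists that follow, 1068 (8%) rose and 1133 (8.49%) fell. List counts near these shares are not read as a result about the list. At 3-fold or more 92 genes rose and 12 fell, and at 8-fold or more 12 rose and 1 fell. These counts depend on the read minimum, which genes such as Csf2, Nos2 and Igfbp5 passed through 1 library alone. The direction of large changes is therefore not read from them. Of well-read genes 88.6% were within 1.3-fold, and of all measured genes 82.3%. At 1.1-fold or more with an interval that left out 1, 2518 genes rose and 2832 fell. The median log2 ratio over all measured genes was -0.00, but TMM scaling of the same libraries sets it near 0. Genes that rose 2-fold took 0.787% of the reads in medium and 2.28% with TNF, while those that fell 2-fold took 0.329% and 0.130%.

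**Figure D1:**
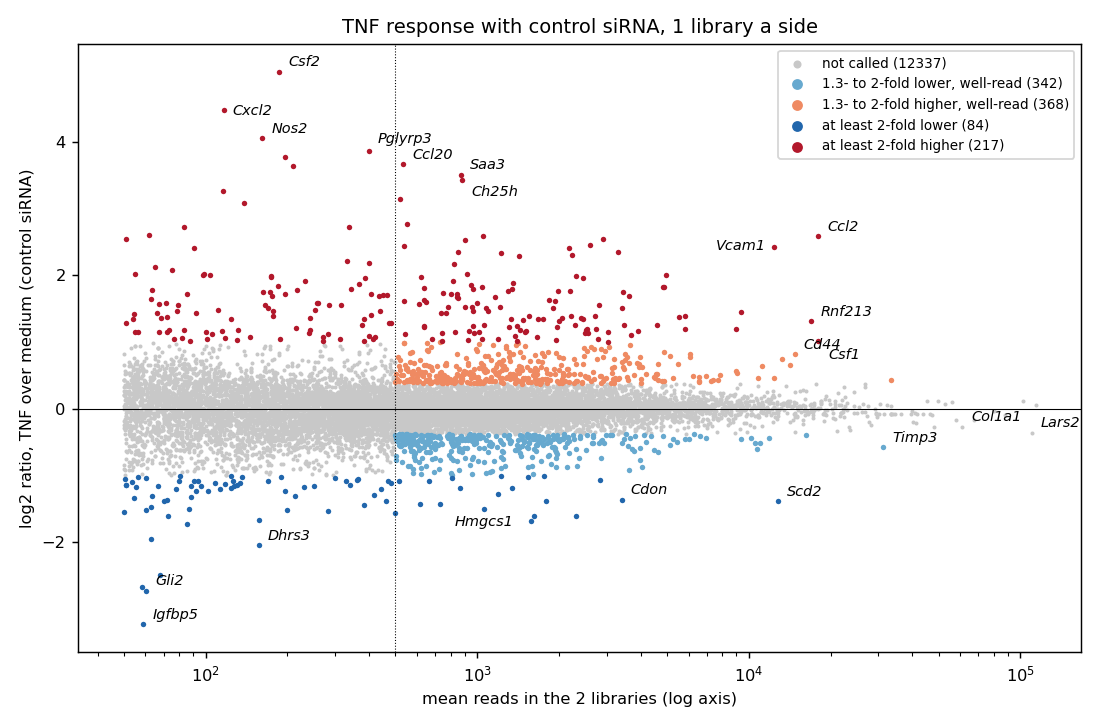
Log2 ratio of TNF over medium with control siRNA (vertical axis) against the mean reads of the gene in the 2 libraries (horizontal axis, log scale), 1 point for each of 13348 genes, coloured by call. The dotted line stands at 500 reads; the 217 genes in dark red and 84 in dark blue passed 2-fold, and the largest ratios lie above 0.

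The same genes were then read in the Sirt6 siRNA pair, which the calls had not used and which differs in its siRNA, so that it is not a replicate. All 217 genes that rose 2-fold had a ratio above 0 there, where 49.8% of all measured genes did, 213 of them (98.2%) rose at least 1.3-fold and 198 (91.2%) at least 2-fold, against 8.14% and 1.87% of all. Of the 84 that fell 2-fold, 81 (96.4%) were below 0, 76 (90.5%) fell at least 1.3-fold and 52 (61.9%) at least 2-fold, against 9.86% and 0.742% of all genes. The 1.3- to 2-fold changes kept their direction in 367 of 368 genes that rose and 341 of 342 that fell, where 56.9% of well-read genes were above 0 and 43.1% below. Of these, 303 (82.3%) rose and 250 (73.1%) fell at least 1.3-fold again, against 8.25% and 5.49% of well-read genes. Their median log2 ratios were 0.52 and -0.50 with control siRNA and 0.56 and -0.48 with Sirt6 siRNA.

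**Figure D2:**
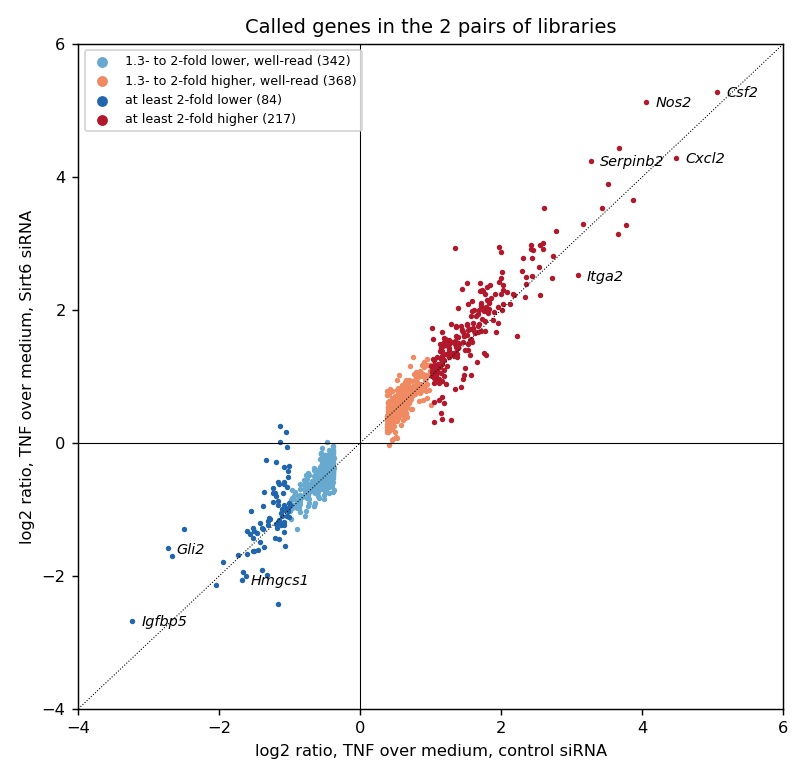
Log2 ratio of TNF over medium with control siRNA (horizontal axis) and with Sirt6 siRNA (vertical axis), 1 point for each of the 1011 genes called with control siRNA, coloured by call; the dotted line marks equal ratios. The choice of genes used the horizontal axis alone, and 5 genes lie on the other side of 0 on the vertical axis.

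Among the genes that rose most firmly, those whose interval stayed farthest from no change, Csf2, the growth factor GM-CSF, rose 33.4-fold, from 11 to 361 reads (0.487 to 19.4 RPM; log2 5.06, 4.46 to 6.33), and went from 0.207 to 11.4 RPM with Sirt6 siRNA. The inducible nitric oxide synthase Nos2 rose from 20 to 303 reads (0.885 to 16.3 RPM; log2 4.06, 3.55 to 4.93), 16.7-fold. Irg1, which makes the antimicrobial metabolite itaconate, rose 13.7-fold from 30 to 361 reads. Few reads in medium were also counted for Mmp10, a stromelysin (35 to 383 reads, 12.5-fold), Serpinb2, an inhibitor of plasminogen activators (24 to 207 reads, 9.67-fold), and Itga2, a collagen-binding integrin chain (33 to 244 reads, 8.47-fold). Neurl3, a ubiquitin ligase, rose from 123 to 918 reads (log2 3.16, 2.91 to 3.46) and Pglyrp3, a peptidoglycan-binding protein, from 59 to 738 reads (log2 3.87, 3.54 to 4.33).

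Among the genes that gained the most RPM were others, already well read in medium. This is a difference of levels that are not divided by gene length, so it favours long and abundant transcripts. Ccl2, a monocyte chemokine, went from 267 to 1612 RPM and Vcam1, an adhesion molecule for leukocytes, from 201 to 1087 RPM. The large ubiquitin ligase gene Rnf213 rose from 493 to 1223 RPM, and the macrophage growth factor Csf1 from 596 to 1205 RPM. Losses in RPM were led by Lars2, a mitochondrial leucyl-tRNA synthetase (5919.6 to 4622 RPM; log2 -0.36), Timp3, a metalloprotease inhibitor (1785 to 1196 RPM; log2 -0.58), and the collagen gene Col1a1 (3218 to 2668 RPM; log2 -0.27). The desaturase Scd2 (861 to 329 RPM; log2 -1.39), Ahnak (-0.27) and the actin gene Actg1 (-0.17) followed, and of these 6 genes Timp3 and Scd2 passed 1.3-fold.

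Among 25 measured genes of the TNF receptors and the complexes they recruit, 5 rose at 1.3-fold or more, 1 fell and 19 were not called (median log2 0.09, beside -0.00 over all genes). Tnfrsf1a, the widely expressed receptor, was at 117 to 108 RPM (log2 -0.12, -0.20 to -0.03) and Tnfrsf1b, the other receptor, at 156 to 202 RPM (log2 0.38, 0.31 to 0.44), short of 1.3-fold, and neither was called. The 5 that rose are regulators bound to the receptor complex or fed by it. Birc3 and Birc2, the ubiquitin ligases that keep the complex from signalling death, rose 3.28-fold (241 to 655 reads) and 1.79-fold (455 to 672 reads). Cflar, a catalytically dead relative of caspase-8 that blocks it, rose 1.69-fold, the kinase gene Ikbke 2.35-fold and Map3k8, a kinase upstream of ERK, 1.43-fold from 89 to 106 reads. Tradd, the adaptor that binds the receptor's death domain, fell from 560 to 332 reads (log2 -0.47), with -0.09 in the Sirt6 siRNA pair.

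Downstream of the receptors, 10 of the 11 measured genes of NF-kB subunits, their inhibitors and close partners rose, 5 of them at least 2-fold, and none fell (median log2 0.94). All 5 subunit genes were among them: Nfkb2 rose 2.38-fold (137 to 326 RPM), Relb 2.22-fold (31.7 to 70.7 RPM), Nfkb1 2.01-fold (100.5 to 202 RPM), Rel 1.92-fold (6.86 to 13.3 RPM) and Rela 1.55-fold (124 to 192 RPM). Of the inhibitors that hold NF-kB in the cytoplasm, Nfkbie rose from 22.1 to 76.6 RPM (log2 1.79, 1.65 to 1.95) and Nfkbia from 45.4 to 141 RPM (log2 1.64, 1.54 to 1.75), both at least 2-fold, and Nfkbib rose 1.87-fold (log2 0.90). Map3k14, the kinase that starts processing of the Nfkb2 product, had a log2 ratio of 0.77 and Bcl3, a nuclear partner of NF-kB, 0.49. The gene not called was Nfkbiz, a nuclear IκB protein (64.8 to 54.1 RPM; log2 -0.26, -0.38 to -0.14). With Sirt6 siRNA 9 of the 11 rose and the median was 0.81.

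Of 20 measured genes that limit NF-kB or destroy inflammatory mRNA, 8 rose, 1 fell and 11 were not called. Tnfaip3, the ubiquitin-editing enzyme A20, rose 4.003-fold from 2304 to 7610 reads (log2 2.001, 1.93 to 2.07), and its binding partners Tnip3 and Tnip1 rose 2.88-fold and 2.24-fold. Irak3, a kinase-dead inhibitor of Toll-like receptor signalling, rose from 74 to 128 reads (2.07-fold). Socs3, a brake on STAT3, fell from 773 to 403 reads (log2 -0.66, and -0.95 with Sirt6 siRNA). Of 20 measured genes of AP-1 and the MAP kinase phosphatases, 7 rose and 1 fell, Fos itself (331 to 180 reads; log2 -0.60). Fosl1 rose 2.39-fold (1543 to 3041 reads), although 53.1% of its sequence is shared with another gene. Junb rose 1.76-fold, Maff 1.77-fold, and the phosphatases Dusp16 and Dusp5 rose 1.44-fold and 1.35-fold.

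**Figure D3:**
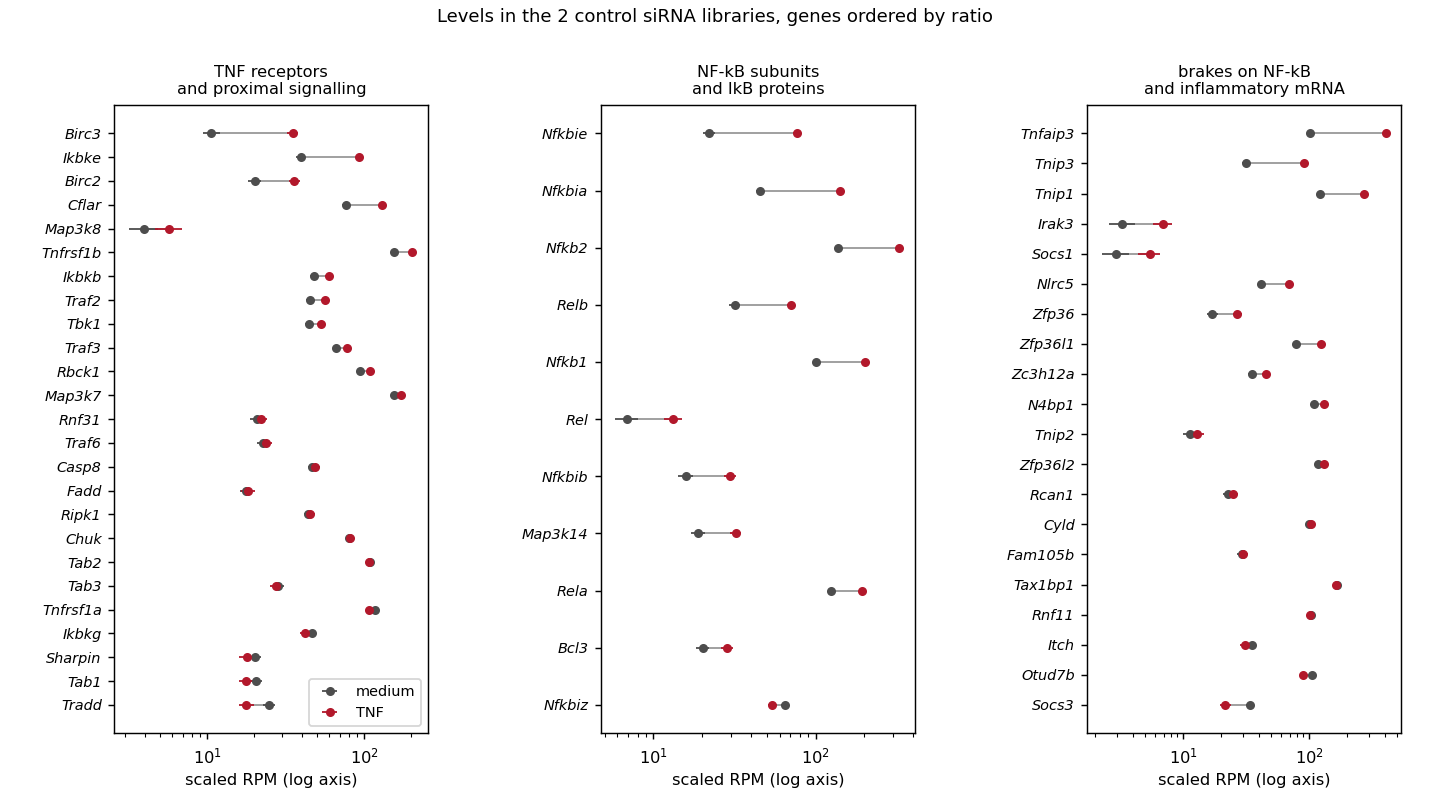
Level in medium (grey) and with TNF (red) in the control siRNA libraries, in scaled RPM on log axes, for every measured gene of 3 lists, ordered by ratio; bars are exact Poisson 95% intervals of counting error. In the middle panel 10 of 11 genes rose, while 19 of 25 in the left panel were not called.

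Of 16 measured chemokines 12 rose, 10 of them at least 2-fold, and 1 fell (median log2 1.33), and their summed level went from 671 to 2644 RPM. The neutrophil chemokine Cxcl2 rose 22.4-fold from 10 to 223 reads (log2 4.48, 3.85 to 5.84) and Cxcl1 6.11-fold from 19 to 105 reads (log2 2.61, 2.03 to 3.53). Ccl20, which draws cells with the receptor Ccr6, rose 12.7-fold from 91 to 975 reads (log2 3.67, 3.39 to 4.03), and with Sirt6 siRNA it went from 2.03 to 45.6 RPM. Cxcl10, an interferon-induced T cell chemokine, rose 5.86-fold from 44.0 to 258 RPM. Cxcl12, which retains cells that bear Cxcr4, was the member that fell, from 1746 to 795 reads (log2 -0.86, -0.98 to -0.73).

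Cytokine and growth factor genes rose in 15 of 25 cases, 7 of them at least 2-fold, and none fell (median log2 0.59). Beside Csf2 they include Pdgfb, a growth factor for mesenchymal cells (181 to 554 reads, 3.68-fold), Lif, a relative of interleukin-6 in signalling (1037 to 2919 reads, 3.41-fold), and Il6 itself (90 to 255 reads, 3.38-fold). Il6 had a log2 ratio of 1.35 with Sirt6 siRNA, beside 1.76 with control siRNA. In the acute phase and complement list 7 of 13 genes rose and 1 fell, with a median of 0.48. Saa3, a serum amyloid, rose 11.4-fold (7.30 to 84.3 RPM), the iron-siderophore binder Lcn2 3.89-fold (8.05 to 31.6 RPM), the pentraxin Ptx3 2.76-fold (29.6 to 82.0 RPM) and the copper oxidase Cp 1.62-fold (39.3 to 63.6 RPM). Cfb, complement factor B, went from 44 to 152 reads, but 73.5% of its sequence is shared with an overlapping gene model.

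The adhesion genes that let leukocytes bind rose in 6 of 13 cases and fell in 1. Vcam1 rose 5.41-fold (log2 2.44, 2.39 to 2.48), Icam1 3.89-fold from 51.7 to 201 RPM, and Selp, the P-selectin better known from endothelium and platelets, 4.66-fold from 136 to 529 reads. Of 12 endothelial markers 6 were measured, 5 of them with a ratio above 0 (median log2 0.20), and at 1.3-fold Kdr and Flt1 rose (3.01 to 4.56 RPM and 25.3 to 33.4 RPM) and Esam fell (42.5 to 31.9 RPM). The summed level of the 6 was 86.8 RPM in medium and 87.7 with TNF, and their part in the Selp ratio was not tested. Cd274, the checkpoint ligand PD-L1, rose 2.11-fold (306 to 535 reads) and the hyaluronan receptor Cd44 1.76-fold (533 to 938 RPM). The sialomucin Podxl was the member that fell (383 to 283 RPM; log2 -0.44).

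All 49 measured interferon-stimulated genes rose, 36 of them at least 2-fold, where 8% and 1.63% of all genes did. Their median log2 ratio was 1.35 with control siRNA and 1.55 with Sirt6 siRNA, the lowest member was at 0.50, and the summed level went from 2975 to 6897 RPM. Gbp5 and Gbp2, guanylate-binding proteins that attack intracellular microbes, rose 6.59-fold (103 to 570 reads) and 5.47-fold (941 to 4255 reads). Parp14, an ADP-ribosyltransferase, rose 5.10-fold (1261 to 5312 reads) and Oas3, which makes the activator of RNase L, 3.99-fold (1076 to 3545 reads). Ifit3, of a family that binds foreign RNA, went from 806 to 3562 reads (5.35-fold), with 49.9% of its sequence shared with a close paralog. Of 20 measured genes of interferon signalling itself 12 rose and none fell (median 0.49). Usp18, which cuts ISG15 from proteins and dampens the interferon receptor, rose 3.07-fold, the transcription factors Stat2 and Irf7 1.87-fold and 1.68-fold, and the kinase Jak2 1.70-fold. Both libraries came from cells maintained with interferon-γ and then kept without it from the move to 37 °C, and the part of that history in these ratios was not tested.

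Of 21 measured genes that process or present antigen on MHC class I, 11 rose, 3 at least 2-fold, and 1 fell, the lipid-presenting Cd1d1 (log2 -0.45; median of the list 0.43). Psmb10, a catalytic subunit of the immunoproteasome, rose 2.88-fold (23.7 to 68.2 RPM), the peptide transporter chain Tap2 2.01-fold (46.5 to 93.7 RPM), the peptide editors Tapbpl and Tapbp 2.03-fold and 1.71-fold, and the trimming peptidase Erap1 1.54-fold. Of the chains that carry the peptide, H2-K1, which shares 8.59% of its sequence with other genes, was at 1030.1 to 1168 RPM (log2 0.18, 0.15 to 0.21) and B2m at 1041 to 1082 RPM (log2 0.06, 0.03 to 0.08), and neither was called. None of the 14 subunits of the constitutive proteasome core was called, and their log2 ratios ran from -0.14 to 0.21. None of the 18 subunits of its regulatory cap was called either.

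Sensors of microbes rose in 8 of 19 cases and none fell. Tlr2, which binds bacterial lipoproteins, rose 3.47-fold (176 to 508 reads), Nod2, which senses muramyl dipeptide, 2.96-fold (182 to 447 reads), Tlr3, which binds double-stranded RNA, 2.45-fold (319 to 646 reads), and Cd14, a co-receptor for endotoxin, 2.12-fold (196 to 344 reads). Among genes of cell death 7 of 26 rose and 1 fell. Those that rose include Casp4, the caspase that detects cytosolic endotoxin (524 to 955 reads, 2.21-fold), the pore former Gsdmd (880 to 1501 reads, 2.07-fold), the death receptor Fas (685 to 1161 reads, 2.05-fold), Bid, which links death receptors to mitochondria (1.99-fold), and Mlkl, the effector of necroptosis (1.62-fold). Bad, which promotes mitochondrial death, fell (log2 -0.40).

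Of 24 redox genes 3 rose and 1 fell, beside 8% and 8.49% of all genes. Beside Nos2, the mitochondrial superoxide dismutase Sod2 rose 3.41-fold (50.7 to 173 RPM), with 21.6% of its sequence shared with another gene, and the metallothionein Mt2 1.58-fold, while catalase, Cat, fell (log2 -0.43). Of 18 genes of arginine, kynurenine and NAD metabolism 5 rose and none fell. Slc7a2, a carrier of the substrate arginine, rose 4.50-fold from 346 to 1291 reads and Gch1, needed for the cofactor tetrahydrobiopterin, 2.96-fold from 355 to 870 reads. Nampt, the enzyme that recycles NAD, rose 1.51-fold and Nadk, which makes NADP, 1.43-fold. In iron handling 5 of 14 genes rose and 1 fell, the reductase Steap3 (log2 -0.70). Those that rose include Lcn2 and Cp, the mitochondrial importer Slc25a37 (1.597-fold), the metal reductase Steap4 (1.48-fold) and the importer Slc39a14 (1.46-fold). Of 9 prostaglandin genes 1 rose and 3 fell. Ptgs2, the inducible cyclooxygenase, rose (276 to 631 RPM, 2.29-fold), while Ptgs1, the constitutive form, fell from 237 to 179 RPM (log2 -0.41) and Ptgr1, which inactivates prostaglandins, from 33.1 to 21.2 RPM (log2 -0.64). The prostaglandin E receptor gene Ptger1 went from 668 to 392 reads (log2 -0.49), but 64.1% of its sequence is shared with an overlapping gene.

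Of 26 measured proteases and inhibitors 8 rose, 6 at least 2-fold, and 5 fell. Mmp13, a collagenase, rose 5.06-fold (20.8 to 106 RPM), Mmp3, a stromelysin, 3.02-fold (25.2 to 76.1 RPM) and Adamts9, which cleaves proteoglycans, 5.11-fold (14.3 to 73.7 RPM). Adamts1, Adamts5 and the membrane-bound collagenase Mmp14 fell (log2 -0.39, -0.44 and -0.45), as did the protease Mmp11 (-0.62) and the inhibitor Timp3 (log2 -0.58, -0.60 to -0.55). Among 39 structural matrix genes 4 rose and 4 fell, where 8% and 8.49% of all genes did, and none passed 2-fold. These counts lie near the shares of all genes and are not read as a result about the list. The collagens Col6a2, Col3a1 and Col6a1 and the fibulin Fbln1 fell (log2 -0.74, -0.51, -0.41 and -0.38), and Has2, which makes hyaluronan, Spp1, which is osteopontin, Thbs1, a thrombospondin, and Agrn, which is agrin, rose (1.62-fold, 1.48-fold, 1.38-fold and 1.34-fold).

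**Figure D4:**
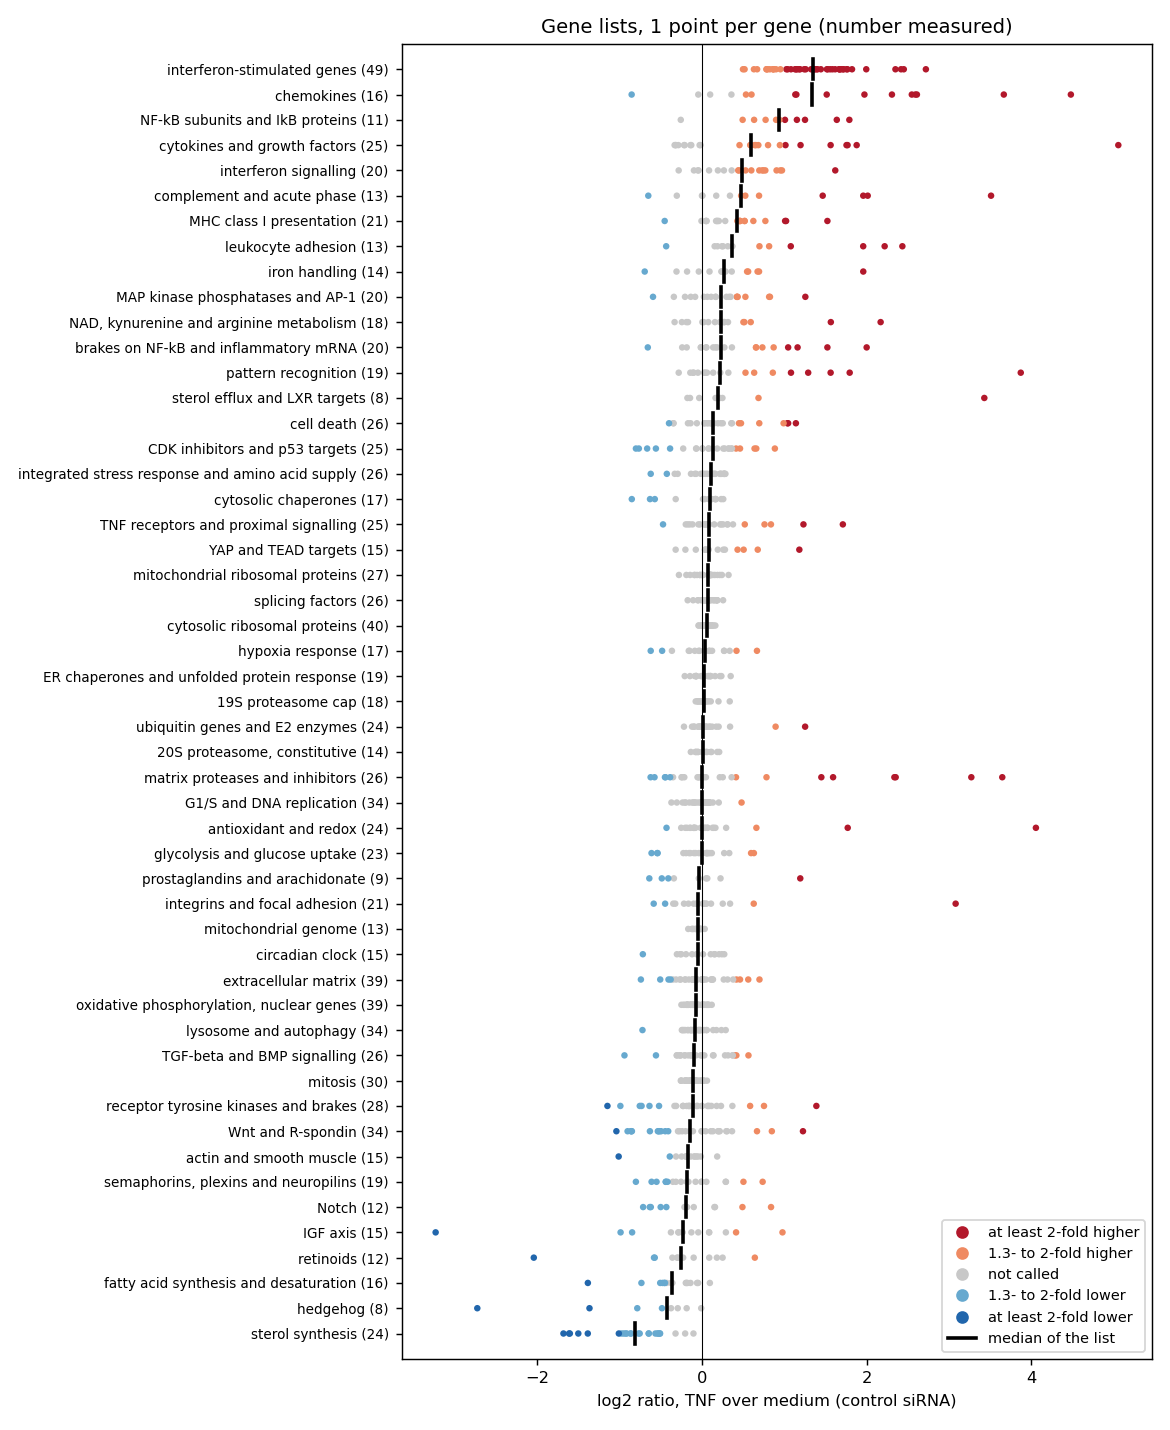
Log2 ratio of TNF over medium with control siRNA for the measured members of 51 gene lists, 1 point a gene, coloured by call, with the number measured in parentheses and a black bar at the median. Interferon-stimulated genes and chemokines stand at the top with medians of 1.35 and 1.33, and sterol synthesis stands at the bottom with -0.82.

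Cholesterol synthesis was the list with the lowest median. The pathway turns acetyl-CoA through mevalonate, squalene and lanosterol into cholesterol, and its genes are driven by the transcription factor Srebf2. All 24 measured genes had a ratio below 0, 21 fell at 1.3-fold or more, where 8.49% of all genes did, 6 of them at least 2-fold, and none rose (median log2 -0.82). Their summed level went from 2027 to 1080.1 RPM. Hmgcs1, which makes the precursor of mevalonate, fell 3.21-fold, from 111 to 34.4 RPM (log2 -1.68, -1.81 to -1.56), and from 157 to 37.5 RPM with Sirt6 siRNA. Sqle, which oxidises squalene, fell 2.84-fold (72.6 to 25.5 RPM) and Cyp51, which removes a methyl group of lanosterol, 2.62-fold (121 to 46.2 RPM). Fdft1 and Lss, the squalene synthase and the lanosterol cyclase, fell by less than 2-fold (log2 -0.98 and -0.95). Insig1, which keeps the SREBP proteins in the endoplasmic reticulum, fell 3.07-fold (113 to 36.9 RPM). The 3 genes not called encode late steps: Ebp (-0.10), Dhcr7 (-0.20) and Sc5d (-0.32).

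**Figure D5:**
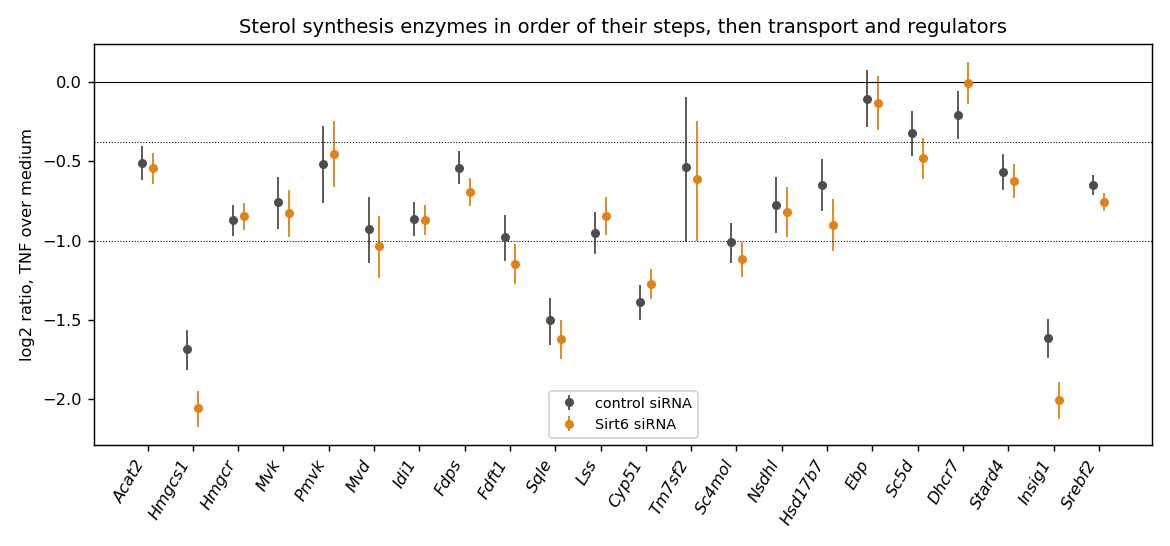
Log2 ratio of TNF over medium for genes of sterol synthesis, enzymes in the order of their steps and then Stard4, Insig1 and Srebf2, with control siRNA (grey) and Sirt6 siRNA (orange); bars are exact 95% intervals of counting error, and dotted lines mark 1.3- and 2-fold lower. All points shown lie below 0, Hmgcs1 lowest at -1.68 and -2.06.

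In the fatty acid list 6 of 16 genes fell and none rose (median -0.37). The desaturase Scd2 fell 2.62-fold from 19472 to 6136 reads, the elongase Elovl6 1.67-fold, and the desaturases Scd1 and Fads1 and the transcription factor Srebf1 had log2 ratios of -0.51, -0.46 and -0.48. Of 8 genes in a list of sterol export and related genes 2 rose. Ch25h, which makes a hydroxylated cholesterol and is not an exporter, rose 10.8-fold from 7.79 to 84.9 RPM (log2 3.43, 3.22 to 3.68). Abca1, the pump that loads cholesterol onto lipoprotein, rose 1.61-fold from 35.2 to 56.7 RPM.

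Of 15 genes around the insulin-like growth factors 2 rose and 3 fell. Igfbp5, which binds these factors, had the lowest ratio of all measured genes, from 110 to 8 reads (log2 -3.24, -4.75 to -2.47), 9.43-fold lower. Its mean was 59 reads, and it passed the minimum through the medium library alone. Igfbp2 fell from 72 to 29 reads (log2 -0.99) and had a log2 ratio of -0.15 with Sirt6 siRNA. Igfbp6 fell 1.80-fold (1291 to 590 reads), while Igfbp3 and Igfbp7 rose 1.97-fold and 1.33-fold. Of 8 measured hedgehog genes 4 fell and none rose. They are Gli2, the activating transcription factor (109 to 12 reads; log2 -2.73, -3.90 to -2.04), the co-receptors Cdon (228 to 88.4 RPM; log2 -1.37, -1.45 to -1.29) and Gas1 (log2 -0.79), and the signal transducer Smo (log2 -0.49). Gli2 was -1.59 in the Sirt6 siRNA pair, beside -1.57 for Cdon.

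Wnt genes fell in 12 of 34 cases and rose in 3. Among those that fell were Lgr4, which binds R-spondins, 2.06-fold lower (51.1 to 24.8 RPM), the co-receptor Ror1 at log2 -0.86, and the frizzled receptors Fzd1 and Fzd7 at -0.54 and -0.41. The ligand Wnt10a rose 2.34-fold (435 to 842 reads), Wnt11 fell (log2 -0.52), the R-spondin Rspo3 rose 1.80-fold (294 to 438 reads) and so did Myc, 1.59-fold (88.5 to 141 RPM). In the Notch list 2 of 12 rose, the ligand Jag1 (1.79-fold) and the DNA-binding partner Rbpj (1.41-fold). The 5 that fell were the target Hes1, the fringe enzymes Lfng and Rfng, the ligand Dll1 and the feedback gene Nrarp (log2 -0.43, -0.63, -0.50, -0.62 and -0.72). Among receptor tyrosine kinases and their brakes 6 of 28 fell and 3 rose, beside 8.49% and 8% of all genes. The Eph receptors Ephb2 and Ephb3 fell 2.22-fold and 1.66-fold with the ligand Efnb1 (log2 -0.64), and the EGF receptor inhibitors Errfi1 and Lrig1 and the VEGF receptor Kdr rose 2.62-fold, 1.69-fold and 1.50-fold. Of 19 semaphorins and their receptors 6 fell and 2 rose. The secreted guidance cues Sema3f, Sema3a and Sema3e fell (log2 -0.80, -0.61 and -0.44) with the receptor Plxnb1 (-0.42), and Plxnd1 and Sema4b rose 1.67-fold and 1.42-fold.

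Of the remaining genes that fell most firmly, Dhrs3, which reduces retinaldehyde, went from 262 to 51 reads (log2 -2.04, -2.55 to -1.65), in a retinoid list where 3 of 12 fell and 1 rose. Aldh1a2, which makes retinoic acid, and the reductase Rdh11 fell (log2 -0.57 and -0.58), and Rdh10, which makes retinaldehyde, rose 1.56-fold. Mrgprf, an orphan receptor (105 to 12 reads), and Fam180a (120 to 16 reads) had log2 ratios of -2.68 and -2.50, and of -1.70 and -1.30 with Sirt6 siRNA. Rap1gap, which switches off the GTPase Rap1, fell 3.88-fold (105 to 21 reads) and Medag, known from adipocyte formation, 2.95-fold (776 to 216 reads). The inhibitory SMAD Smad6 fell 1.92-fold (967 to 414 reads), the contractile light chain Myl9 2.02-fold (176 to 71 reads) and Lrrn4, a mesothelial marker, 2.10-fold (179.6 to 85.5 RPM). Of the 15 measured mesothelial markers 5 fell and 1 rose, Slpi, a protease inhibitor (1.996-fold), and their summed level went from 5983 to 5019.8 RPM. The 18 fibroblast and smooth muscle markers went from 6412 to 5397 RPM when summed, with 1 of 13 measured higher and 1 lower (median log2 -0.16), and the 30 colon epithelium markers from 1878 to 1416 RPM, with 2 of 7 measured lower (median log2 -0.24). Most of the colon sum is Krt8, Krt18 and Krt19, which are in the mesothelial list too. The 2 lower genes, Krt8 and Krt18, are also among the 5 mesothelial markers that fell. Without the keratins, Tspan8 went from 47.0 to 53.5 RPM, Klf5 from 10.2 to 12.0, Muc13 from 2.79 to 3.54 and Cdh1 from 13.8 to 11.7. In bulk RNA, fewer cells of a kind and less RNA per cell cannot be told apart.

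Among the firmest of the well-read genes that rose 1.3- to 2-fold were Il18rap, an interleukin-18 receptor chain (1069 to 1746 reads; log2 0.98, 0.88 to 1.097), Ogfr, a receptor for opioid growth factor (log2 0.93, 0.86 to 1.01), Abcb1b, a drug efflux pump (log2 0.93, 0.85 to 1.01), and Hivep2, a zinc finger protein that binds NF-kB-like sites (log2 0.94, 0.84 to 1.05). Slc25a25, a mitochondrial nucleotide carrier, and Rab8b, a GTPase of vesicle traffic, rose 1.93-fold and 1.89-fold. Among those that fell were Dsp and Jup, plaque proteins of the desmosome: Dsp (2268 to 950 reads; log2 -0.98, -1.09 to -0.87) and Jup (5577 to 2507 reads; log2 -0.87, -0.94 to -0.81). The transcription factor Foxo6 (log2 -0.995, -1.16 to -0.84), the adhesion receptor Bai2 (log2 -0.97, -1.13 to -0.81), Dpysl5, a protein of growing nerve processes (log2 -0.94, -1.07 to -0.81), the repressors Zfp503 and Nacc2 (log2 -0.99 and -0.88) and the proton pump subunit Atp6v0a1 (log2 -0.96) fell as well. At the 2-fold line, Nfkb1 at 2.01-fold and Tap2 at 2.01-fold lay just inside and Slpi at 1.996-fold and Mitd1 at 1.99-fold just outside. Among genes that fell, Tnrc18 and Sc4mol, at 2.01- and 2.02-fold, were inside and Foxo6 and Zfp503, at 1.99- and 1.98-fold, outside.

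Of 30 mitosis genes none was called, although 26 had a ratio below 0 (median log2 -0.10, lowest -0.26), and of 34 genes of G1/S and replication 1 rose, E2f3 (1.40-fold). Of 25 measured inhibitors of cyclin-dependent kinases and p53 targets 5 rose and 5 fell. The other 15 were not called. Among the inhibitors Cdkn2d, Cdkn1b, Cdkn2c and Cdkn2b fell (log2 -0.80, -0.77, -0.67 and -0.39). The p53 targets went both ways: Sesn1 fell (-0.56), while Mdm2 and Plk2 rose 1.38-fold and 1.56-fold. Trp53 itself rose 1.33-fold, and the stress genes Gadd45b and Gadd45a rose 1.85-fold and 1.58-fold. Targets of YAP rose in 4 of 15 cases, among them Ankrd1 (57 to 109 reads; log2 1.18, 0.74 to 1.70), Ctgf (1.599-fold), Cyr61 (1.42-fold) and the receptor kinase Axl (1.35-fold). No gene was called among 40 cytosolic and 27 mitochondrial ribosomal proteins, 39 nuclear genes of oxidative phosphorylation, 13 of the mitochondrial genome, 26 splicing factors and 19 genes of the unfolded protein response. Genes of the mitochondrial genome took 1.50% of the reads in medium and 1.42% with TNF.

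The promoter letters were counted for the 9178 measured genes that matched the RefSeq table. NF-kB letters stood before 13 of 135 genes that rose 2-fold (9.63%) and 11 of 292 that rose 1.3- to 2-fold (3.77%), against 1.65% of all 27025 promoters searched and 1.82% of those of measured genes. ISRE letters stood before 40 of the 135 (29.6%) and 19 of the 292 (6.51%), against 3.46% and 3.36%, and before 14 of 37 interferon-stimulated genes with a promoter. AP-1 letters were found before 29 of the 135 (21.5%) and 32 of the 292 (10.96%), against 7.82% of all promoters and 5.39% of those of measured genes. Before genes that fell, NF-kB letters were found for 1 of 59 at 2-fold (1.69%) and 3 of 255 at 1.3- to 2-fold (1.18%), and ISRE letters for 1 of 59 and 4 of 255. AP-1 letters were found there for 6 of 59 (10.2%) and 11 of 255 (4.31%). The sterol element letters stood before 1 of 17 sterol synthesis genes, Hmgcs1, and before 1.22% of all promoters. Matches of NF-kB and ISRE letters shared bases in the promoters of 2 measured genes, and no other pair of motifs did. The shares describe these windows without a test.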

How the data were processed

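The series holds 4 libraries of polyadenylated RNA, each from 1 culture of YAMC cells. The deposited table gives whole read counts per gene, per the file headers. The authors also deposited values headed RPKM, which equal RPM to within 0.0005 and served as a check. CASAVA, Bowtie 1.0.1 and edgeR are named in the submitters' processing notes. The genome build, annotation and counting rule, strand use included, are not given in the sources used here, and reads of overlapping or near-identical genes cannot be told apart. Totals of gene-assigned reads were 22422365 and 18793708 for control siRNA and 23749380 and 21755516 for Sirt6 siRNA, and the limit that 0 reads leave, 3 reads, came to 0.133, 0.161, 0.124 and 0.140 RPM in that order.

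The counts of each pair were scaled by TMM in edgeR 4.0.16 (R 4.3.3). Log2 ratios have a prior count of 2 and the intervals have none. A gene rose or fell at a ratio of at least 2, or at least 1.3 where stated, with a 95% interval that left out 1. The width of the interval on the log2 scale, divided by 2, had a median of 0.578 for genes near 50 reads, 0.179 near 500 and 0.0549 near 5000. Intervals and floors cover counting error only. Python 3.11.15 and scipy 1.17.1 were used. The ratios, intervals and calls were also run on simulated counts with counting error alone, which cannot show the spread between cultures. The members, the 56 gene lists and the rules were chosen with earlier results of these data known, so no list has a test.

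Genes were named by rule: the 12 firmest each way at 2-fold and at 1.3- to 2-fold, the 6 that gained or lost the most RPM, the called genes of the receptor and NF-kB lists, and up to 5 called members each way of every other list (2-fold, or 1.3-fold with 500 reads). Of the 219 named, 33 share over 10% of their 50-base sequences with another gene and 3 over 50%: Cfb, Ptger1 and Fosl1. Among the others Mt2 shares 46.0%, Actg1 39.1%, Medag 34.4% and Krt8 32.4%. The receptor genes, B2m, H2-K1, the sterol genes not called and members that complete a count of 5 or fewer were named for their role after their values were seen. Some genes that these rules name are not reported here. Names turned into dates by a spreadsheet (27) were restored by identifier. Alternatives used other scalings, read minimums, prior counts and intervals, an additive model of all 4 libraries, genes without shared sequence and, added after seeing the data, GC content bins.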

Additional observations from a re-analysis of the deposited data

Results flagged for a closer look

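Of the 1011 genes called with control siRNA, 5 had a ratio on the other side of 0 with Sirt6 siRNA, and 8 list members called at 1.3-fold with fewer reads did so too; the difference between the pairs was not tested for any of them. The log2 ratios with control and Sirt6 siRNA were -1.06 and 0.16 for Aldh3a1, 0.41 and -0.0246 for Egr1, -1.14 and 0.0067 for Nexn, -0.48 and 0.0197 for Pex2, and -1.14 and 0.26 for Shf. In the lists they were -0.48 and 0.0836 for Car12, 0.60 and -0.17 for Eno2, -0.38 and 0.0899 for Fbln1, 0.42 and -0.15 for Grem1, -0.57 and 0.31 for Hspa1a, -0.63 and 0.27 for Hspa1b, -0.72 and 0.13 for Nrarp, and -0.52 and 0.11 for Spry1. For all 13 the counting interval of the Sirt6 siRNA ratio held 0. Egr1, an immediate early transcription factor, was the most deeply read, with 1963 and 2152 reads with control siRNA and 2830 and 2461 with Sirt6 siRNA.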

How the results depend on the processing

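The labels carry no replicate numbers, and each group is 1 library. Scaling to total reads gave 211 genes higher and 96 lower at 2-fold and 331 and 393 at 1.3- to 2-fold, with 100% of the latter lower in the Sirt6 siRNA pair. Under it Csf1 (0.99), Tap2 (0.99), Nfkb1 (0.98) and Tapbpl (1.00) missed 2-fold, and Skil (0.38) and Flt1 (0.37) missed 1.3-fold. DESeq2's size factors gave 217 and 84. Without a minimum beyond 1 read 478 rose and 296 fell; with a minimum of 20 reads 146 fell, and 96.4% of those that rose and 89.7% of those that fell kept their direction in the Sirt6 siRNA pair; with 200 reads 35 fell and 100% did. A well-read minimum of 1000 gave 234 and 171 genes of 1.3- to 2-fold, and one of 200 gave 654 lower. Leaving out genes of shared sequence left 137 that rose 2-fold and 74 that fell. Within GC content bins 100% of the 1.3- to 2-fold changes kept their direction, both ways. Additive models of the 4 libraries, with the siRNA as a block and 1 residual degree of freedom, were fitted in edgeR and DESeq2. They include the control siRNA libraries that chose the genes, so their calls are no separate support for those genes. The spread in these models is pooled over genes and is not one of replicates, so their counts are not given. No ratio of the 219 genes named by rule changed sign under the scalings, minimums, prior counts and GC content bins run, but list medians did so 18 times, in 12 lists. In the marker lists, a minimum of 200 reads took the median log2 ratio from 0.20 to -0.0077 for endothelium and from -0.0273 to 0.15 for leukocytes. The other medians that changed sign lay within 0.0671 of 0 before. Depth limits the smaller changes: of 1520 genes under 500 reads with a ratio past 1.3-fold, 167 had a counting interval that held no change, against 0 of 848 well-read genes.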

Other observations

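Gene groups not described above are given here, beside the 8% of all measured genes that rose and the 8.49% that fell at 1.3-fold or more. The counts are small and are not read as a result about the groups. Of 23 genes of glycolysis and glucose uptake 2 rose and 3 fell: the hexokinase Hk2 rose 1.55-fold (56.5 to 87.5 RPM), and the lactate carrier Slc16a1 and the phosphofructokinase Pfkm fell (log2 -0.61 and -0.54). Of 24 ubiquitin genes 2 rose, Ube2l6, the conjugating enzyme for ISG15 (711 to 1400 reads, 2.38-fold), and Fbxo32, a ubiquitin ligase subunit known from muscle wasting (1.86-fold). Of 17 cytosolic chaperones 3 fell, Dnajb4 (887 to 404 reads; log2 -0.85, -1.03 to -0.68) among them. Of 34 lysosome and autophagy genes 1 fell, the transcription factor Tfeb (log2 -0.72, -0.97 to -0.49; -0.86 with Sirt6 siRNA), and of 15 clock genes 1 fell, Per3 (log2 -0.72 and -0.53). Among 21 integrins and focal adhesion genes Itga2 and Itga5 rose (8.47-fold and 1.55-fold), and Itgb4 and Itgb8 fell (log2 -0.59 and -0.45). Of 26 genes of TGF-beta and BMP signalling 3 rose and 2 fell, with Tgif1 and Skil, repressors of SMAD targets, 1.48-fold and 1.32-fold higher.

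Across 13097 measured genes with a reference transcript, which are not independent replicates, the log2 ratio had a Spearman correlation of -0.15 with the GC content of the gene, and -0.26 in the Sirt6 siRNA pair. In the fifth of well-read genes with the lowest GC content the median log2 ratio was 0.03, and in the fifth with the highest it was -0.04.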
